A study of Homo sapiens with 12 samples.

Results

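The dual-specificity MAP kinase phosphatases considered here are 10 genes, found by symbol in a table of 63241 Ensembl genes. They are DUSP1, DUSP2, DUSP4, DUSP5, DUSP6, DUSP7, DUSP8, DUSP10, DUSP14 and DUSP16. The RNA came from HCT116, a colorectal cancer cell line of human origin, and was read by total RNA sequencing. All 10 were present in the table, and all 10 passed the filter on low counts. No measured value entered the rule that chose them.

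The study compared 4 groups of 3 libraries. In HCT116-POLR1A-AID cells the largest subunit of RNA polymerase I carries an auxin-inducible degron, a tag through which a small ligand sends the protein to the proteasome. Doxycycline (1 µg/ml) started 24 h earlier turned on OsTIR1, the receptor the degron needs, and the ligand was sodium indole-3-acetate at 500 µM. In HCT116-POLR2A-AID2 cells the tag sits on the largest subunit of RNA polymerase II, and the ligand was 5-phenyl-indole-3-acetic acid at a concentration of 1 µM. The third group was wild-type HCT116 given actinomycin D, a DNA-binding drug that blocks transcription, at 5 µg/mL. The control was wild-type HCT116 given DMSO. Titles give 8 h for the degron and control groups and 6 h for actinomycin D, whereas the extraction text gives harvest at 6 h. No library of either degron line without its ligand was used here, so cell line, inducer, ligand and loss of the subunit cannot be told apart. The degrons act on protein, so the mRNA of either subunit does not check the depletion. In bulk RNA, fewer cells with a transcript and less of it per cell cannot be told apart.

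MAP kinases (ERK, JNK and p38) are switched on when a kinase phosphorylates both a threonine and a tyrosine in their activation loop. Dual-specificity phosphatases remove both phosphates and so end the signal. Several of them are themselves made in response to MAP kinase activity, which closes a negative feedback loop, and their mRNAs are known as short-lived transcripts. DUSP1, DUSP2, DUSP4 and DUSP5 are inducible enzymes of the nucleus. DUSP6 and DUSP7 act on ERK in the cytoplasm. DUSP8, DUSP10 and DUSP16 prefer JNK and p38. DUSP14 is a small atypical member that lacks the docking domain of the others.

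The catalytic signature is what makes these genes a family, so its codons are shown first. Each line below gives 24 bases of coding strand, 5′ to 3′, for the histidine, the catalytic cysteine, 5 further residues and the arginine that binds the phosphate. Capitals mark the cysteine and arginine codons. They were read from GENCODE 29 transcripts (GRCh38), whose exons place them in the genome. The stretch of DUSP4 is not shown.
DUSP1: cacTGCcaggcaggcatttccCGG
DUSP2: cacTGCcaggcgggtatctcgCGC
DUSP5: cacTGTgaggctgggatctccCGT
DUSP6: catTGCttggctggcattagcCGC
DUSP7: cacTGCctggcaggcatcagcCGC
DUSP8: cacTGTctggctggcatctccCGC
DUSP10: cacTGCcaggctggggtgtccCGC
DUSP16: cacTGTttagctgggatctccCGC
DUSP14: cacTGTgctgcaggggtgagcCGC
The catalytic cysteine is residue 258 of 367 in DUSP1, 293 of 381 in DUSP6 and 111 of 198 in DUSP14, which encodes the shortest protein of the 10. DUSP16 encodes the longest, with 665 residues. Over these 24 bases DUSP8 and DUSP16 shared 21, the most of any pair shown, and DUSP2 and DUSP14 shared 13, the fewest. The stretch lies on the minus strand at chr5:172769074-172769097 in exon 4 of DUSP1 and at chr12:89349503-89349526 in exon 3 of DUSP6. It lies on the plus strand at chr17:37512600-37512623 in exon 3 of DUSP14.

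A pair of promoters is shown because they hold the cyclic AMP response element, a site bound by factors of the CREB and ATF families. The windows are the 250 bases before the RefSeq transcription start (GRCh38.p14), in the direction of transcription. Capitals mark the element TGACGTCA, the shorter core TGACG on either strand, and the TATA box TATAAA.
DUSP1: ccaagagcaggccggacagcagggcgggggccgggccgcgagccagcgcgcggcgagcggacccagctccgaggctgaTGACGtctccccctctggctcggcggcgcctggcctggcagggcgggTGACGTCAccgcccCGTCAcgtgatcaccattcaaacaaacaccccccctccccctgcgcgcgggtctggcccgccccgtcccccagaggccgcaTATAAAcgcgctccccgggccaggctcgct
DUSP8: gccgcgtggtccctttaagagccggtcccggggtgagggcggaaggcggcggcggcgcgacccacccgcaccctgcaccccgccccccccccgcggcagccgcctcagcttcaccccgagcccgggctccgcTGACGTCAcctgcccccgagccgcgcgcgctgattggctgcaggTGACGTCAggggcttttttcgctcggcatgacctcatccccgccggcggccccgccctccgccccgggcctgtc
The DUSP1 window is chr5:172771196-172771445 and the DUSP8 window chr11:1572272-1572521, both on the minus strand.

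Library totals ran over 18797087 to 21802364 counts after POLR1A depletion, 11289272 to 15037531 after POLR2A depletion, 20302228 to 27394059 under actinomycin D and 12235119 to 17535790 in controls. Levels are given as CPM, counts relative to the library total after TMM scaling. The sums of markers that follow use the library total alone, without TMM. The summed level of 9 intestinal epithelial markers was 1973 to 2075 CPM after POLR1A depletion, 2644 to 2657 after POLR2A depletion, 2937 to 3155 under actinomycin D and 3574 to 3782 in controls, with CDX1 at 0 counts in all 4 groups. KRT8 had the most counts of the 9 in every group. The markers did not all move with the sum. Against controls, 0 of 8 tested were called higher and 7 lower after POLR1A depletion. The counts were 1 and 5 after POLR2A depletion and 2 and 3 under actinomycin D. Sums of 5 fibroblast markers were 22.2 to 23.6, 14.4 to 20.6 and 9.71 to 11.3 CPM in the 3 treatments in that order, against 6.96 to 8.42 in controls. Sums of 6 blood cell markers were 6.33 to 8.96, 3.39 to 5.93 and 1.08 to 2.56 CPM, against 2.34 to 4.09 in controls. Sums of 4 endothelial markers were 0.372 to 0.603, 11.2 to 14.8 and 0.690 to 0.767 CPM, against 0.570 to 0.798 in controls. Most fibroblast marker counts were those of COL1A1, with 1405 after POLR1A depletion and 348 in controls. CD68 gave most blood cell marker counts in the same groups, at 454 and 122. The largest endothelial counts after POLR2A depletion were those of PECAM1 (343) and KDR (112). These sums thus rest on few genes. CD3E was at 0 counts in all groups except POLR2A-depleted cells, where it had 1. The part of these shifts in the results below was not tested. Replicates were dishes treated on one day, so p-values measure the spread between dishes.

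In control cells DUSP5 and DUSP6 were the most abundant members and DUSP10 the least. Levels of different genes were compared as CPM per kilobase of annotated exon. DUSP5 averaged 51.2 ± 4.81, DUSP6 44.6 ± 2.48, DUSP4 22.98 ± 1.002 and DUSP14 12.9 ± 1.51 CPM per kilobase in controls (SD, n = 3). DUSP7 followed at 10.8 ± 1.08, DUSP2 at 7.71 ± 0.395 and DUSP1 at 6.35 ± 1.39. DUSP16 stood at 3.21 ± 0.213, DUSP8 at 1.78 ± 0.323 and DUSP10 at 0.218 ± 0.0429 CPM per kilobase. In that order the control libraries of DUSP14 and DUSP7 overlapped, as did those of DUSP2 and DUSP1, while the other neighbours were separate.

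The order changed with treatment. DUSP5 led after POLR1A depletion, at 60.8 ± 1.68 CPM per kilobase, and after POLR2A depletion, at 34.5 ± 2.44. Under actinomycin D DUSP14 led at 4.24 ± 0.217, ahead of DUSP4 at 3.83 ± 0.190, and DUSP5 stood at 2.79 ± 0.490, where its libraries overlapped those of DUSP6 and DUSP16. Summed over the 10 genes, the level was 157 to 163 CPM per kilobase after POLR1A depletion, 92.4 to 96.2 after POLR2A depletion, 19.1 to 20.2 under actinomycin D and 152 to 172 in controls. The sum in POLR1A-depleted cells thus overlapped that in controls, but its makeup differed. DUSP6 gave 15.3% ± 0.632 of the sum after POLR1A depletion, 17.1% ± 1.06 after POLR2A depletion, 14.9% ± 0.671 under actinomycin D and 27.6% ± 1.31 in controls (SD, n = 3 each). DUSP14 gave 14.6% ± 0.182, 13.7% ± 1.55 and 21.5% ± 1.05 in the same 3 treatments, against 7.96% ± 0.548 in controls. DUSP16 gave 2.10% ± 0.157 after POLR1A depletion, 3.63% ± 0.315 after POLR2A depletion and 12.8% ± 0.906 under actinomycin D, against 1.997% ± 0.251 in controls.

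**Figure D1:**
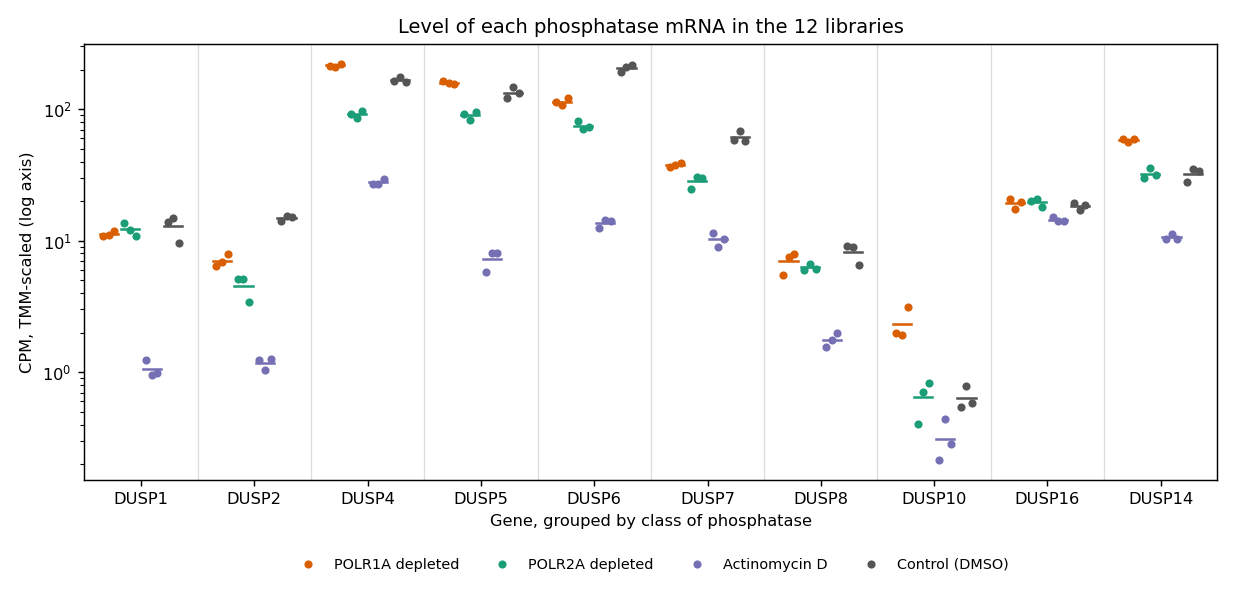
TMM-scaled CPM of each phosphatase gene (log axis) in the 3 libraries of each group, with points for libraries and short lines for group means. Actinomycin D libraries lie lowest for every gene, DUSP10 with overlap of the POLR2A-depleted ones, while POLR1A-depleted libraries lie highest for DUSP4, DUSP5, DUSP10 and DUSP14.

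Against the DMSO controls, 4 of the 10 genes rose and 3 fell after POLR1A depletion, 5 fell after POLR2A depletion and 9 fell under actinomycin D. The threshold was an adjusted p of 0.05 (edgeR's quasi-likelihood test, Benjamini-Hochberg over 23593 genes). Of all genes tested 39.1% passed it after POLR1A depletion, 61.4% after POLR2A depletion and 53.4% under actinomycin D. By direction, 20.6% were called higher and 18.6% lower after POLR1A depletion, against 4 and 3 of the 10 members. Whether so short a list differs from these shares was not tested. After POLR2A depletion 28.2% of all genes were called lower and 33.2% higher, against 5 and 0 of the members. Under actinomycin D 28.5% were called lower and 24.9% higher, against 9 and 0 of the members. The median log2 fold change of the 10 members was -0.061 after POLR1A depletion, -0.48 after POLR2A depletion and -2.58 under actinomycin D. The median of all genes tested was 0.013, 0.084 and -0.061 in the same 3 comparisons. The counts of 0 higher stayed at 0 with DESeq2 and at an unadjusted p of 0.05, whereas scaling to mitochondrial mRNAs called 1 gene higher under actinomycin D (DUSP16). With that scaling the median of all genes under actinomycin D was 0.823. It takes the mitochondrial mRNAs as equal in all groups, which was not tested. The 3 comparisons use the same control libraries and are not independent of each other. CPM values are shares of a library, so a gene's share, not its number of molecules per cell, was compared.

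**Figure D2:**
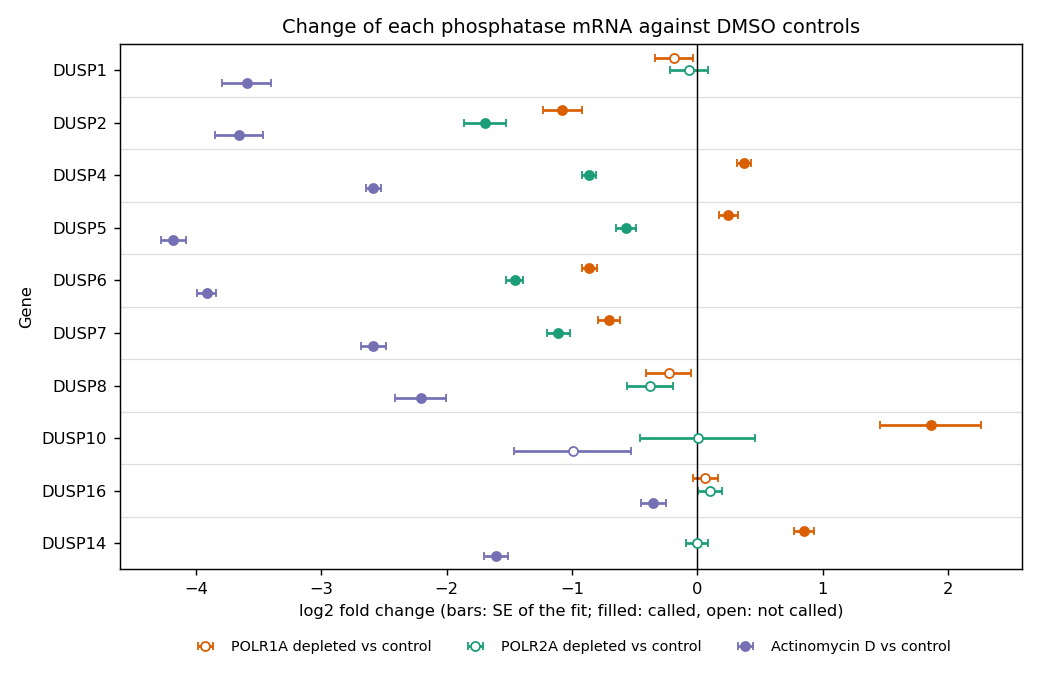
Log2 fold change of each gene against DMSO controls, with bars for the SE of the fit over 12 libraries and filled symbols for called changes. Actinomycin D symbols reach -4.18 for DUSP5, and POLR1A-depleted symbols lie to the right of 0 for DUSP4, DUSP5, DUSP10, DUSP14 and, without a call, DUSP16.

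Among the nuclear enzymes, DUSP1 (ENSG00000120129, chr5:172768090-172771195), the archetype of the family, fell under actinomycin D and had no call in either depletion. It had 10.8, 10.99 and 11.9 CPM after POLR1A depletion, 13.6, 12.02 and 10.9 after POLR2A depletion and 1.24, 0.956 and 0.987 under actinomycin D, against 13.97, 14.9 and 9.64 CPM in controls. Both sets of depleted libraries lay within the control range, and the actinomycin D libraries lay below every other. Under actinomycin D DUSP1 fell 12.1-fold, a log2 fold change of -3.60 (SE 0.19, adjusted p = 9.6e-13). After POLR2A depletion the change was -0.067, with a 95% interval from -0.38 to 0.25 (adjusted p = 0.724). After POLR1A depletion it was -0.19, with a 95% interval from -0.50 to 0.12 (adjusted p = 0.357). The sign of the POLR2A value turned without control replicate 2, to 0.041, and with library totals alone, to 0.054.

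DUSP2 (ENSG00000158050, chr2:96143166-96145440), a nuclear enzyme first known from activated lymphocytes, fell in all 3 comparisons. It had 6.43, 6.88 and 7.88 CPM after POLR1A depletion, 5.09, 5.15 and 3.40 after POLR2A depletion and 1.24, 1.03 and 1.27 under actinomycin D, against 14.1, 15.5 and 15.1 CPM in controls. No 2 of these 4 groups overlapped. DUSP2 had a log2 fold change of -1.08 after POLR1A depletion (SE 0.16, adjusted p = 7.21e-06), -1.70 after POLR2A depletion (SE 0.17, adjusted p = 1.58e-08) and -3.66 under actinomycin D (SE 0.19, adjusted p = 4.86e-13). After POLR2A depletion 3.18% of all genes tested had a lower log2 fold change, the most extreme place of any member in that comparison.

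DUSP4 (ENSG00000120875, chr8:29333064-29350668), a nuclear phosphatase of ERK and JNK, rose after POLR1A depletion and fell in both other treatments. It had 214, 210.5 and 222 CPM after POLR1A depletion, 92.02, 85.3 and 97.3 after POLR2A depletion and 27.1, 26.9 and 29.4 under actinomycin D, against 165, 175 and 161 CPM in controls. Every POLR1A-depleted library stood above every control, and every library of the other treatments below. The rise after POLR1A depletion was 0.37 on the log2 scale, or 1.29-fold (SE 0.055, adjusted p = 8.92e-06). Its log2 fold change was -0.87 after POLR2A depletion (SE 0.057, adjusted p = 2.67e-11) and -2.58 under actinomycin D, or 6-fold lower (SE 0.061, adjusted p = 1.32e-18).

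DUSP5 (ENSG00000138166, chr10:110497838-110511544), a nuclear phosphatase specific for ERK, rose after POLR1A depletion and fell in both other treatments, with the largest log2 fold change of the 10 genes under actinomycin D. It had 164, 159 and 155 CPM after POLR1A depletion, 92.2, 83.04 and 95.3 after POLR2A depletion and 5.82, 8.002 and 8.08 under actinomycin D, against 122, 147 and 133 CPM in controls. Under actinomycin D DUSP5 fell 18.2-fold, a log2 fold change of -4.18 (SE 0.10, adjusted p = 3.22e-16), and 0.954% of all genes tested were lower. After POLR2A depletion the log2 fold change was -0.57 (SE 0.08, adjusted p = 7.01e-06). The rise after POLR1A depletion was small, 0.25 on the log2 scale (SE 0.077, adjusted p = 0.0161), and the libraries of the 2 groups did not overlap. That call was lost without POLR1A-depleted replicate 1 (adjusted p = 0.0638), without control replicate 1 (adjusted p = 0.0706) and without control replicate 3 (adjusted p = 0.0559), with log2 fold changes of 0.23, 0.19 and 0.25.

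The cytoplasmic ERK phosphatases DUSP6 and DUSP7 fell in all 3 comparisons. DUSP6 (ENSG00000139318, chr12:89347232-89353271), the classical feedback inhibitor of ERK, had 112, 108 and 121 CPM after POLR1A depletion, 81.8, 70.6 and 73.05 after POLR2A depletion and 12.6, 14.3 and 14 under actinomycin D, against 194, 210.3 and 216 CPM in controls. The groups were fully separate. DUSP6 had a log2 fold change of -0.86 after POLR1A depletion (SE 0.063, adjusted p = 3.52e-10), -1.46 after POLR2A depletion (SE 0.065, adjusted p = 6.6e-14) and -3.92 under actinomycin D, or 15.1-fold lower (SE 0.075, adjusted p = 6.14e-20). None of its 12 deposited values was exactly a whole number. In GENCODE 29, 1875 of its exonic bases (40.5%) are shared with the antisense gene AC024909.2, which had 515 counts over all libraries, against 21067 for DUSP6, and the sources used here do not give the strand setting of the counting.

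DUSP7 (ENSG00000164086, chr3:52048919-52056550), its close relative, had 36.3, 37.4 and 39.1 CPM after POLR1A depletion, 24.7, 30.7 and 29.9 after POLR2A depletion and 11.5, 8.96 and 10.3 under actinomycin D, against 58.2, 68.3 and 57.4 CPM in controls. Again no 2 groups overlapped. It had a log2 fold change of -0.70 after POLR1A depletion (SE 0.09, adjusted p = 1.32e-06), -1.11 after POLR2A depletion (SE 0.094, adjusted p = 1.74e-09) and -2.58 under actinomycin D (SE 0.10, adjusted p = 5.04e-15). The POLR1A value was -0.35 (adjusted p = 0.0833) when libraries were scaled to mitochondrial mRNAs, which moved the median of all genes to 0.369. Relative to that median DUSP7 lay at -0.72, against -0.72 with TMM. A scaling shifts all genes of a library nearly alike, so this relative value could hardly change and does not check the fall.

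The phosphatases that prefer JNK and p38 had no call after POLR2A depletion, where 61.4% of all genes tested had one. DUSP1 and DUSP14, of other classes, had no call there either. In the other comparisons DUSP8, DUSP10 and DUSP16 differed among themselves. DUSP8 (ENSG00000184545, chr11:1554044-1571920) had 5.45, 7.55 and 7.93 CPM after POLR1A depletion, 6.03, 6.69 and 6.14 after POLR2A depletion and 1.56, 1.75 and 1.97 under actinomycin D, against 9.13, 8.99 and 6.48 CPM in controls. Its actinomycin D libraries were separate from all others and the remaining groups overlapped. Under actinomycin D DUSP8 fell, with a log2 fold change of -2.21 (SE 0.20, adjusted p = 5.01e-09). After POLR1A depletion the change was -0.23, with a 95% interval from -0.60 to 0.15 (adjusted p = 0.35), and after POLR2A depletion -0.38, with a 95% interval from -0.76 to 0.007 (adjusted p = 0.0829). The POLR2A value passed the threshold without control replicate 3, at -0.55 (adjusted p = 0.0218), without the filter on low counts, at -0.48 (adjusted p = 0.0402), and with mitochondrial scaling, at -0.68 (adjusted p = 0.0199). Mitochondrial scaling turned the POLR1A value to 0.099. None of its 12 deposited values was exactly a whole number.

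DUSP10 (ENSG00000143507, chr1:221701424-221742176), a phosphatase of JNK and p38, was the least abundant member and the one that rose most after POLR1A depletion. It had 1.97, 1.92 and 3.13 CPM after POLR1A depletion, 0.402, 0.711 and 0.829 after POLR2A depletion and 0.216, 0.438 and 0.282 under actinomycin D, against 0.546, 0.779 and 0.584 CPM in controls. These rest on 149 counts in all after POLR1A depletion, 28 after POLR2A depletion, 21 under actinomycin D and 30 in controls. The rise after POLR1A depletion was 3.63-fold, a log2 fold change of 1.86 (SE 0.41, adjusted p = 0.00075), and all 3 libraries stood above all controls. After POLR2A depletion the change was 0.005, with a 95% interval from -0.95 to 0.96 (adjusted p = 0.993). Under actinomycin D it was -0.99, with a 95% interval from -1.96 to -0.025 (adjusted p = 0.079), although the 3 libraries lay under all controls.

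DUSP16 (ENSG00000111266, chr12:12474210-12562383), which holds JNK in check in the cytoplasm, had, with TMM, the smallest log2 fold change of the 10 genes after POLR1A depletion and under actinomycin D, though not after POLR2A depletion. It had 20.6, 17.3 and 19.8 CPM after POLR1A depletion, 19.9, 20.9 and 18.2 after POLR2A depletion and 15.1, 14.1 and 14.1 under actinomycin D, against 19.4, 17.02 and 18.8 CPM in controls. Only the actinomycin D libraries stood apart, below the rest. The log2 fold change there was -0.35 (SE 0.099, adjusted p = 0.00458). Under mitochondrial scaling the sign turned, to 0.56 (adjusted p = 0.00581), where the median of all genes stood at 0.823. Relative to the median of all genes DUSP16 was at -0.29 with TMM and -0.27 with mitochondrial scaling, a value that a change of scaling could hardly move. The call was also lost without the filter on low counts, at -0.26 (adjusted p = 0.0615). After POLR1A depletion the change was 0.065, with a 95% interval from -0.14 to 0.27 (adjusted p = 0.653), and after POLR2A depletion 0.10, with a 95% interval from -0.10 to 0.31 (adjusted p = 0.395).

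DUSP14 (ENSG00000276023, chr17:37489831-37513501), the atypical member, rose after POLR1A depletion and fell under actinomycin D. It had 59.5, 56.8 and 58.9 CPM after POLR1A depletion, 29.9, 35.6 and 31.4 after POLR2A depletion and 10.2, 11.2 and 10.3 under actinomycin D, against 27.9, 35.1 and 33.7 CPM in controls. All POLR1A-depleted libraries were above all others, while POLR2A-depleted and control libraries overlapped. The rise was 1.80-fold (log2 fold change 0.85, SE 0.083, adjusted p = 2.75e-08). Under actinomycin D DUSP14 fell 3.04-fold (log2 fold change -1.61, SE 0.093, adjusted p = 3.46e-12). After POLR2A depletion the change was 0, with a 95% interval from -0.18 to 0.18 (adjusted p = 0.997).

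Set directly against POLR2A depletion, POLR1A depletion left 7 of the 10 genes higher and 0 lower, with DESeq2 and at an unadjusted p of 0.05 alike. Of all genes tested 29.1% were called higher and 33.2% lower in that comparison. In all 62.2% passed the threshold. The median difference of the members was 0.61 on the log2 scale, against -0.081 for all genes. The widest gaps were those of DUSP10, at 1.86 (SE 0.41, adjusted p = 0.000482), and DUSP4, at 1.24 (SE 0.056, adjusted p = 9.54e-14). DUSP14 was higher by 0.85 (SE 0.083, adjusted p = 1.48e-08) and DUSP5 by 0.82 (SE 0.079, adjusted p = 6.78e-08). DUSP2, DUSP6 and DUSP7, which fell in both depletions, were also higher after POLR1A depletion, by 0.62, 0.60 and 0.40 (SE 0.17, 0.065 and 0.095), and their libraries did not overlap. For 3 genes no difference was called. DUSP1 differed by -0.12, with a 95% interval from -0.43 to 0.19 (adjusted p = 0.511), DUSP8 by 0.15, with a 95% interval from -0.23 to 0.53 (adjusted p = 0.497) and DUSP16 by -0.036, with a 95% interval from -0.24 to 0.17 (adjusted p = 0.766). Mitochondrial scaling turned DUSP1 to 0.53 (adjusted p = 0.0298) and DUSP16 to 0.61 (adjusted p = 0.00228) and moved DUSP8 to 0.78 (adjusted p = 0.00584), where the median of all genes was 0.561. The sign of DUSP16 also turned without POLR1A-depleted replicate 2, to 0.059.

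Actinomycin D left all 10 genes lower than POLR1A depletion did, where 31.8% of all genes were called lower and 24.4% higher, 56.2% in all. The median difference was -2.72 over the members and -0.115 over all genes. It ranged from -4.43 for DUSP5 (SE 0.10, adjusted p = 9.7e-17) to -0.42 for DUSP16 (SE 0.096, adjusted p = 0.00085). DUSP14 differed by -2.46 and DUSP10 by -2.85 (SE 0.09 and 0.42). Under mitochondrial scaling DUSP16 turned to 0.15 (adjusted p = 0.514) and had no call.

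Actinomycin D also left 9 of the 10 genes lower than POLR2A depletion did, with 39.8% of all genes called lower and 31.1% higher, 70.9% in all. The median difference was -1.77 over the members and -0.175 over all genes. DUSP5 and DUSP1 were furthest apart, at -3.61 (SE 0.10, adjusted p = 2.72e-15) and -3.53 (SE 0.20, adjusted p = 1.26e-12). DUSP1 had 1.24, 0.956 and 0.987 CPM under actinomycin D against 13.6, 12.02 and 10.9 after POLR2A depletion. DUSP10 was the gene without a call, at -0.999, with a 95% interval from -1.98 to -0.022 (adjusted p = 0.063, unadjusted p = 0.0455). It passed the threshold without actinomycin D replicate 2, at -1.31 (adjusted p = 0.0397), without POLR2A-depleted replicate 1, at -1.23 (adjusted p = 0.0353), and with library totals alone, at -1.24 (adjusted p = 0.0249). Under mitochondrial scaling DUSP7 lost its call, at -0.28 (adjusted p = 0.142), and DUSP16 turned to 0.75 (adjusted p = 0.000144), where the median of all genes was 1.02. The drug was given for a shorter time than the ligand by the titles, and the cell lines differ.

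**Figure D3:**
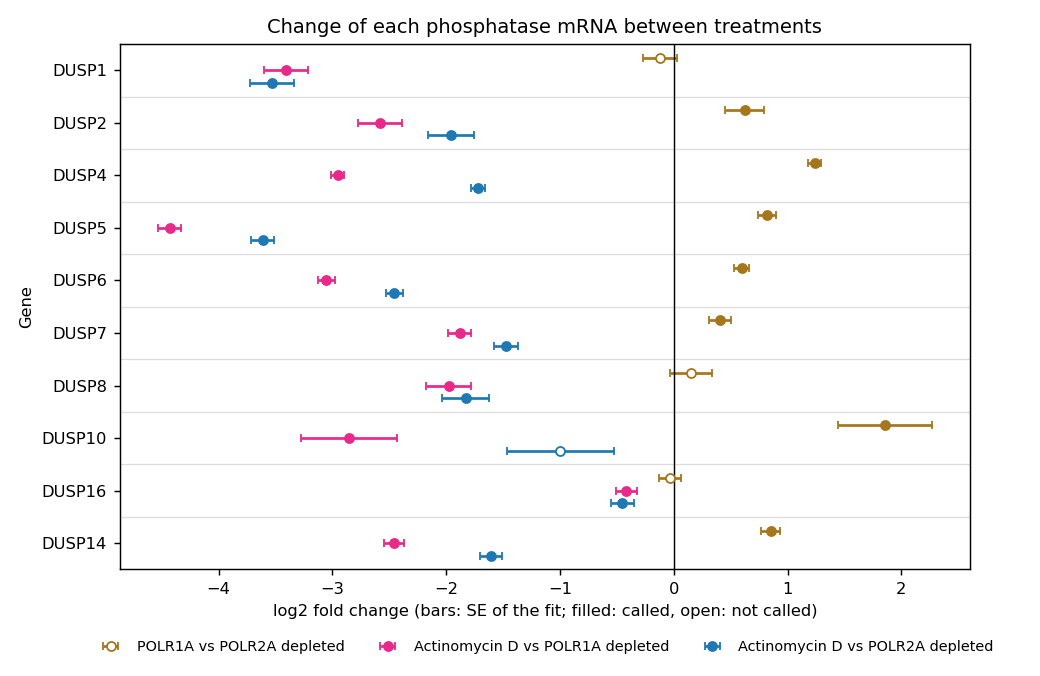
Log2 fold change of each gene between treatments, with bars for the SE of the fit and filled symbols for called differences. POLR1A against POLR2A depletion runs from -0.12 for DUSP1 to 1.86 for DUSP10, and both contrasts of actinomycin D lie to the left of 0 for all 10 genes.

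Other genes of the MAP kinase pathway were read from lists by function. From each list the gene with the largest called change in each comparison with controls is named, with a few of the next largest. Of all genes tested, 20.6% were called higher and 18.6% lower after POLR1A depletion. These shares were 33.2% and 28.2% after POLR2A depletion and 24.9% and 28.5% under actinomycin D. With mitochondrial scaling 85.1%, 38.6% and 85.2% of all calls in the same comparisons were higher ones. Of 16 genes induced by ERK, most of them feedback inhibitors or transcription factors, 11 higher and 2 lower (median 0.62) were called after POLR1A depletion, 2 higher and 14 lower (median -0.47) after POLR2A depletion and 3 higher and 12 lower (median -1.14) under actinomycin D. With mitochondrial scaling the actinomycin D counts were 5 higher and 8 lower. EGR1, an early growth response factor, averaged 596 ± 49.1 CPM after POLR1A depletion against 160.0 ± 13.7 CPM in controls (SD, n = 3 each), a log2 fold change of 1.90 (SE 0.093, adjusted p = 1.51e-09). IER3, an early response gene, averaged 39.03 ± 5.15 CPM under actinomycin D against 342 ± 15.6 CPM in controls, a log2 fold change of -3.13 (SE 0.075, adjusted p = 1.82e-17). SPRED3, a RAF inhibitor related to the Sprouty proteins, had a log2 fold change of 2.14 (SE 0.21, adjusted p = 4.17e-08) after POLR1A depletion and 2.28 (SE 0.22, adjusted p = 9.74e-09) after POLR2A depletion. SPRY1, a Sprouty feedback inhibitor, fell after POLR1A depletion, with a log2 fold change of -2.13 (SE 0.33, adjusted p = 1.42e-05).

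Of 14 genes for the MAP kinases themselves, 9 higher and 2 lower (median 0.30) were called after POLR1A depletion, 3 higher and 5 lower (median -0.019) after POLR2A depletion and 8 higher and 2 lower (median 0.50) under actinomycin D. The POLR2A counts were 6 higher and 5 lower with library totals alone and 0 higher and 6 lower with mitochondrial scaling, so their balance depends on the scaling. MAPK3, which encodes ERK1, averaged 64.98 ± 1.28 CPM under actinomycin D against 34.7 ± 2.19 CPM in controls, a log2 fold change of 0.90 (SE 0.071, adjusted p = 4.71e-10). MAPK7, which encodes ERK5, averaged 4.61 ± 0.593 CPM under actinomycin D against 15.6 ± 1.33 CPM in controls, a log2 fold change of -1.75 (SE 0.12, adjusted p = 6.67e-11). MAPK6, an atypical kinase, fell after POLR2A depletion, with a log2 fold change of -1.21 (SE 0.05, adjusted p = 1.93e-14). MAPK4, another atypical kinase at a low level, averaged 0.270 ± 0.281 CPM after POLR2A depletion against 1.34 ± 0.376 CPM in controls, a log2 fold change of -2.19 (SE 0.53, adjusted p = 0.00121). MAPK10, which encodes JNK3, averaged 0.959 ± 0.266 CPM after POLR1A depletion against 0.372 ± 0.166 CPM in controls, a log2 fold change of 1.36 (SE 0.54, adjusted p = 0.0496) that lost its call with RLE size factors, at 1.34 (adjusted p = 0.0525).

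Upstream, 6 of 7 MAP kinase kinase genes were tested. Called were 3 higher and 2 lower after POLR1A depletion (3 higher and 0 lower with mitochondrial scaling), 0 higher and 4 lower after POLR2A depletion and 1 higher and 3 lower under actinomycin D, which became 5 higher and 0 lower with mitochondrial scaling. MAP2K7, an activator of JNK, fell after POLR2A depletion, with a log2 fold change of -1.27 (SE 0.068, adjusted p = 1.21e-12). After POLR1A depletion MAP2K7 had -0.48 (SE 0.064, adjusted p = 1.95e-06), which was -0.14 (adjusted p = 0.518) with mitochondrial scaling. MAP2K3, an activator of p38, fell under actinomycin D, with a log2 fold change of -1.09 (SE 0.054, adjusted p = 2.66e-13), but with mitochondrial scaling it had -0.17 (adjusted p = 0.289). Of 25 genes for RAS, RAF and MAP3 kinases, 20 higher and 3 lower were called after POLR1A depletion, 5 higher and 16 lower after POLR2A depletion and 10 higher and 10 lower under actinomycin D, the last of which became 5 higher and 13 lower with library totals alone and 18 higher and 3 lower with mitochondrial scaling. The POLR2A counts became 0 higher and 17 lower with mitochondrial scaling. MAP3K12, a kinase upstream of JNK, rose after POLR1A depletion, with a log2 fold change of 1.46 (SE 0.083, adjusted p = 6.77e-12). MAP3K5, which encodes the stress kinase ASK1, fell after POLR2A depletion, with a log2 fold change of -1.73 (SE 0.11, adjusted p = 1.65e-11). MAP3K8 fell under actinomycin D, with a log2 fold change of -1.82 (SE 0.37, adjusted p = 0.000232), and had -0.91 (adjusted p = 0.0932) with mitochondrial scaling. Of 10 tested kinases that MAP kinases activate, 4 higher and 4 lower were called after POLR1A depletion, 1 higher and 6 lower after POLR2A depletion and 6 higher and 1 lower under actinomycin D. The POLR1A counts became 6 higher and 1 lower with mitochondrial scaling, and the actinomycin D counts 5 higher and 4 lower with library totals alone and 10 higher and 0 lower with mitochondrial scaling. RPS6KA2, a ribosomal S6 kinase, had a log2 fold change of -1.14 (SE 0.16, adjusted p = 4.18e-06) after POLR1A depletion and 0.72 (SE 0.14, adjusted p = 0.000248) under actinomycin D. RPS6KA3, of the same family, fell after POLR2A depletion, with a log2 fold change of -0.64 (SE 0.054, adjusted p = 1.74e-09).

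Of 11 tested dual-specificity phosphatase genes outside the 10 members, 5 higher and 3 lower (median 0.17) were called after POLR1A depletion, 3 higher and 6 lower (median -0.22) after POLR2A depletion and 5 higher and 4 lower (median 0.36) under actinomycin D. The actinomycin D counts became 9 higher and 0 lower with mitochondrial scaling, where 85.2% of the calls over all genes were higher ones. DUSP19 averaged 7.02 ± 0.516 CPM under actinomycin D against 2.64 ± 0.983 CPM in controls, a log2 fold change of 1.41 (SE 0.22, adjusted p = 1.1e-05). After POLR1A depletion DUSP19 had a log2 fold change of 1.04 (SE 0.22, adjusted p = 0.000572). DUSP12 fell after POLR2A depletion, with a log2 fold change of -1.12 (SE 0.13, adjusted p = 1.91e-07). DUSP11, an RNA phosphatase, averaged 11.2 ± 0.492 CPM under actinomycin D against 24.1 ± 2.06 CPM in controls, a log2 fold change of -1.11 (SE 0.089, adjusted p = 5.42e-10), which was -0.18 (adjusted p = 0.377) with mitochondrial scaling. Of 7 tested genes for other tyrosine and serine/threonine phosphatases of MAP kinases, 5 higher and 0 lower were called after POLR1A depletion, 3 higher and 3 lower after POLR2A depletion and 1 higher and 3 lower under actinomycin D, the last of which became 5 higher and 0 lower with mitochondrial scaling. PTPN7, a tyrosine phosphatase of ERK and p38, averaged 1.08 ± 0.130 CPM after POLR1A depletion against 0.150 ± 0.0870 CPM in controls, a log2 fold change of 2.79 (SE 0.60, adjusted p = 0.000665). PTPRR, a receptor-type tyrosine phosphatase of ERK, averaged 5.39 ± 1.24 CPM after POLR2A depletion against 0.170 ± 0.0581 CPM in controls, a log2 fold change of 4.92 (SE 0.56, adjusted p = 1.35e-07). Both genes were near the lower limit of detection in controls. PPM1D, a phosphatase of p38 that p53 induces, had a log2 fold change of 1.38 (SE 0.057, adjusted p = 5.84e-14) after POLR1A depletion and 0.80 (SE 0.058, adjusted p = 1.6e-10) after POLR2A depletion. Under actinomycin D it was -0.88 (SE 0.061, adjusted p = 5.76e-11), which turned to 0.037 (adjusted p = 0.855) with mitochondrial scaling.

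**Figure D4:**
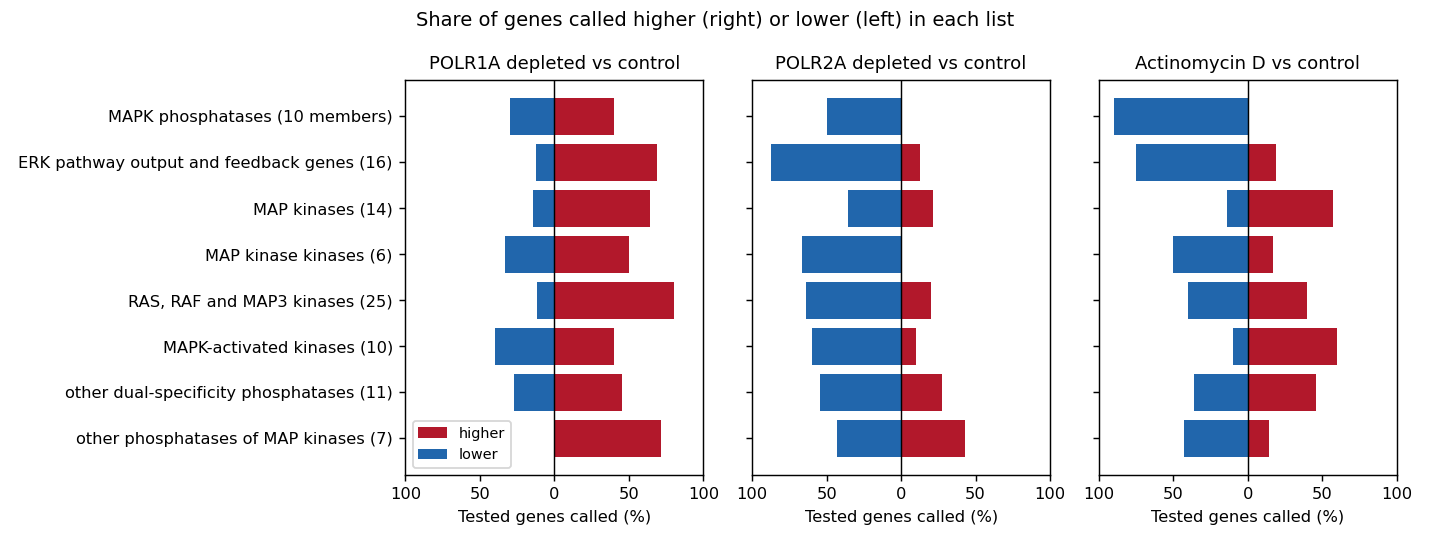
Share of tested genes in each list called higher (red, right) or lower (blue, left) in each comparison with controls, with the number tested in brackets. The 10 phosphatase genes have no call to the right after POLR2A depletion or actinomycin D, where MAP kinase genes have 3 and 8 of 14. MAP kinase kinase genes also have 0 to the right after POLR2A depletion. With mitochondrial scaling, which is not drawn, 1 phosphatase gene (DUSP16) was higher under actinomycin D. The MAP kinase counts were then 0 after POLR2A depletion and 13 under actinomycin D.

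The genes whose pattern over the 12 libraries was most like each member were found among 11869 protein-coding genes. The measure was the root mean square difference of log2 CPM, each gene centred on its own mean. Nearest to DUSP4 were ZNF274, a zinc finger repressor, at 0.125 and SPRY2, a Sprouty feedback inhibitor of ERK signalling, at 0.165, where the median over all candidates was 1.22. ZNF274, the nearer one, had a log2 fold change of 0.497 after POLR1A depletion, -0.674 after POLR2A depletion and -2.355 under actinomycin D. SPRY2 had a log2 fold change of -1.02 (SE 0.20, adjusted p = 0.000199) after POLR2A depletion and -2.81 (SE 0.23, adjusted p = 6.88e-10) under actinomycin D. After POLR1A depletion its value was 0.29 (SE 0.19, adjusted p = 0.245), without a call. Nearest to DUSP5 were PLK2, a stress-induced polo-like kinase, at 0.203 and CCN1, a matricellular early gene, at 0.215. DUSP1 was nearest to CITED2 (0.208) and TRIM11 (0.230), and DUSP2 to KTI12 (0.233) and NFIL3 (0.255). DUSP6 was nearest to ADM, the vasodilator peptide adrenomedullin (0.166), and DUSP7 to SEMA7A, a semaphorin (0.120). DUSP14 was nearest to KBTBD2 (0.143), DUSP16 to RELCH (0.0880), DUSP8 to WDCP (0.160) and DUSP10 to CEP85L (0.315). The median over all candidates ran from 0.473 for DUSP16, which moved little, to 1.88 for DUSP5. Distances of different members are therefore not comparable as measures of likeness. Among the members themselves DUSP2 and DUSP6 were the closest pair, at 0.295, and DUSP5 and DUSP16 the most distant, at 1.64. The 12 libraries share 4 treatments.

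Promoter windows were read for 8 of the 10 genes, with 2 starts for DUSP10. DUSP4 and DUSP5 were not among them, so their promoters were not searched. The cyclic AMP response element TGACGTCA was found in DUSP1, once, with its first base at -125 from the start, and in DUSP8, with first bases at -118 and -74. Of 35116 promoter windows of the same length, 1.65% held that element. The shorter core TGACG occurred 4 times in each of these windows, counting both strands and those inside the full element. None of the other genes read held it, while 21.2% of all windows did. Of the 8 genes DUSP1 alone had the TATA box TATAAA, searched on both strands, at -30 (10.7% of windows). The E-box CACGTG was present in DUSP1 and DUSP2 (6.34% of windows), the CCAAT box CCAAT on either strand in DUSP6, DUSP8 and DUSP10 (32.01%), and the GC box GGGCGG on either strand in 7 of the 8 genes, all but DUSP6 (42.6%). The CArG box was found in none of the 8 (1.16% of windows). The windows ranged from 55.2% G and C at the second start of DUSP10 to 82.8% for DUSP14. With TMM, the members without a call in either depletion were DUSP1 and DUSP8, which hold the full element, and DUSP16, which lacks it. The DUSP8 value after POLR2A depletion passed the threshold under some alternatives. Any link between the element and these changes was not tested.

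**Figure D5:**
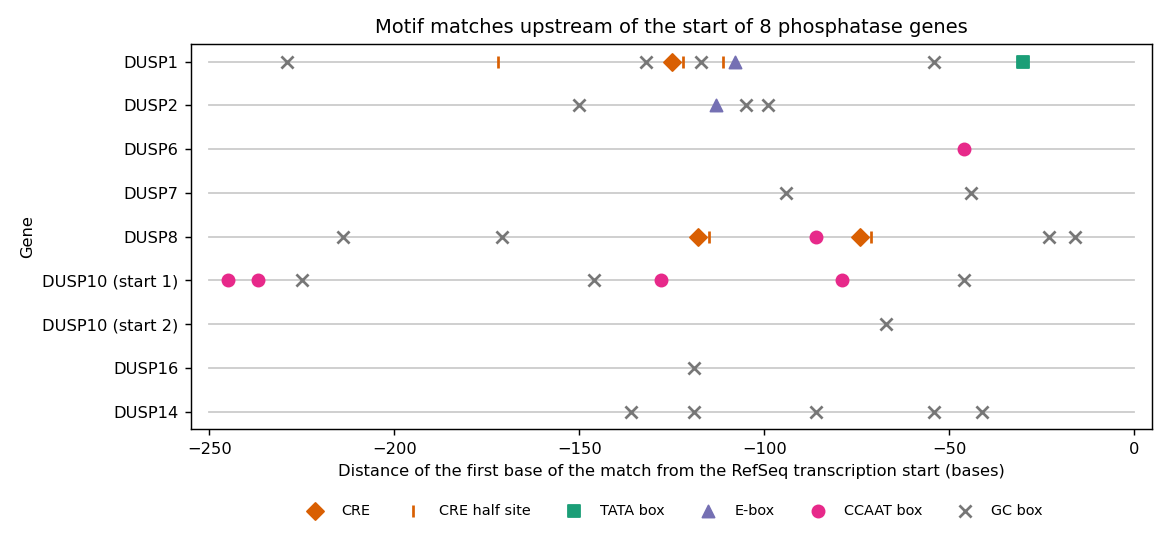
Positions of motif matches in the 250 bases before each RefSeq start, in bases from the start, with 1 symbol per match. Diamonds for the cyclic AMP response element stand on DUSP1 and DUSP8, and the DUSP1 line alone carries the square of the TATA box.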

How the data were processed

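Total RNA, depleted of ribosomal RNA and made into stranded libraries per the labels' protocols, was sequenced from 12 HCT116 libraries. Groups and replicate numbers come from the titles. The deposited values are estimated counts per Ensembl gene, of which 76.1% are exactly whole numbers. Per the submitters' processing notes the build was GRCh38 and the tools included STAR, HTSeq 2.0.2, RSEM 1.3.3 and DESeq2 1.44.0, without their roles. Neither the strand setting nor the release of the annotation is stated there, so antisense and overlapping genes are uncertain.

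Estimated counts were rounded, filtered with filterByExpr (minimum count 10) and scaled by TMM in edgeR 4.0.16 under R 4.3.3. One quasi-likelihood fit with robust moderation held all 12 libraries (8 residual degrees of freedom). Adjusted p-values are Benjamini-Hochberg values over 23593 genes. Standard errors are the log2 fold change divided by the root of the F statistic, and 95% intervals use the moderated degrees of freedom. Exon lengths and coordinates came from GENCODE 29, and promoters from RefSeq. The fit was tested on simulated data. Replicates of each group differed by more than sampling noise, with a chi-square per degree of freedom of 3.49 to 9.37. Intervals from reads without molecular identifiers cover no bias of amplification.

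The members, lists and alternatives were chosen with earlier results of these data known. The rule for named genes takes all 10 members, up to 3 genes of each other list with the largest called changes in a comparison, and the 2 genes nearest to each member. Which of these are printed was decided after their values were seen. Alternatives were RLE size factors, library totals, scaling to 13 mitochondrial mRNAs, no filter, a stricter filter (CPM of 1 in 3 libraries), the DESeq2 test (1.42.0), fits of the 2 groups compared, a replicate block and leaving out each library. The scalings were applied to the other lists after their values had been seen.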

Additional observations from a re-analysis of the deposited data

How the results depend on the processing

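Every count of members called higher or lower stayed within 1.5 times of its value under all alternatives, with 1 exception: scaling to mitochondrial mRNAs gave 1 gene higher (DUSP16) where TMM gave 0, under actinomycin D against controls and against POLR2A depletion. That scaling moved the median of all genes to 0.369 after POLR1A depletion, -0.203 after POLR2A depletion and 0.823 under actinomycin D. Of all calls against controls, the higher ones were then 85.1%, 38.6% and 85.2%, where TMM gave 52.6%, 54.1% and 46.7%. For POLR1A against POLR2A depletion that share was 74.3% where TMM gave 46.7%, and for actinomycin D it was 72.6% where TMM gave 43.4% against POLR1A depletion, and 74.9% where TMM gave 43.9% and library totals 31.9% against POLR2A depletion. Log2 fold changes whose sign turned under it were those of DUSP1 (0.14) and DUSP8 (0.099) after POLR1A depletion, DUSP10 (-0.23), DUSP16 (-0.19) and DUSP14 (-0.26) after POLR2A depletion, and DUSP16 under actinomycin D (0.56). Between treatments they were DUSP1 (0.53) and DUSP16 (0.61) for POLR1A against POLR2A depletion, DUSP16 (0.15) for actinomycin D against POLR1A depletion, and DUSP10 (0.17) and DUSP16 (0.75) for actinomycin D against POLR2A depletion. Without a filter DUSP10 (-0.099) and DUSP14 (-0.10) turned after POLR2A depletion and DUSP16 (0.052) between the depletions, and with library totals DUSP1 turned after POLR2A depletion (0.054), all 4 uncalled. The cause of these changes was not tested.

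Leaving out single libraries turned signs of uncalled values only: after POLR2A depletion DUSP1 ranged from -0.26 to 0.041, DUSP10 from -0.20 to 0.25 and DUSP14 from -0.11 to 0.046, and between the depletions DUSP16 from -0.072 to 0.059. Same-numbered libraries of different groups had deviations that correlated from -0.166 to 0.132 over genes, with 2 of 18 pairs above 0.1. Differently numbered libraries gave -0.133 to 0.175, with 5 of 36 pairs above 0.1. These values gave no sign that the numbers pair the dishes, though weak correlations cannot exclude it. With a replicate block the counts of members called were the same: 4 higher and 3 lower after POLR1A depletion, 0 and 5 after POLR2A depletion, 0 and 9 under actinomycin D, and 7 and 0, 0 and 10 and 0 and 9 between treatments. DUSP10 turned there to -0.002 after POLR2A depletion. Depth limits DUSP10, with 4 to 68 counts per library.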
